A study of Mus musculus with 30 samples.

Results

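The genes described are 8 mouse genes, Entpd5, Creg1, Adora1, Srgap2, Vtcn1, Esd, Acsm1, and D630045J12Rik, none of which is on the list of classical NRF2 targets used for comparison. They were picked from the counts as genes that were higher in wild-type (WT) livers after CDDO-Me than in either mutant, and all 8 were found among the 55335 genes of the count table. CDDO-Me (bardoxolone methyl) is an oleanane triterpenoid that reacts with cysteines of KEAP1. Male mice of an albino C57BL/6J background, 7 to 10 weeks of age, were WT, homozygous for a Keap1 allele in which CRISPR-Cas9 editing replaced a reactive cysteine by serine (C151S), or homozygous for a disrupted Nfe2l2 allele (Nrf2KO). Each genotype was given by mouth 1 dose of CDDO-Me at 30 µmol/kg or its vehicle, which held 10% DMSO and 10% Cremophor-EL, and livers were taken 24 hours later, so that 6 groups of 5 mice gave 30 mRNA libraries. Both alleles are carried in every cell of the body from the germline, and WT mice came from a supplier whereas the mutants were bred as homozygotes. Genotype and colony of origin therefore cannot be told apart.

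The NRF2 transcription factor, encoded by Nfe2l2, is held at a low level by KEAP1, which marks it for degradation. Electrophiles that modify cysteines of KEAP1, among them the one replaced in C151S mice, let NRF2 build up and bind antioxidant response elements (AREs) together with a small MAF protein. In liver this pathway is best known for enzymes of conjugation, glutathione synthesis, and NADPH supply. The 8 genes, outside the list of classical targets used here, encode proteins of several kinds. Entpd5 encodes a nucleoside diphosphatase of the endoplasmic reticulum that removes UDP formed when glycoproteins are reglucosylated during folding. Adora1 encodes the adenosine A1 receptor, and Creg1 a secreted glycoprotein that is taken up into lysosomes. Srgap2 encodes a GTPase-activating protein that acts downstream of SLIT-ROBO signals on the cytoskeleton, and Vtcn1 encodes B7-H4, a cell-surface protein of the B7 family that restrains T cells. Esd encodes S-formylglutathione hydrolase, a step of glutathione-dependent formaldehyde removal, and Acsm1 a mitochondrial medium-chain acyl-CoA synthetase. D630045J12Rik is annotated as a protein-coding gene.

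The libraries held 23667068 to 42073169 counts on genes (median 33229925). Nfe2l2 counts were lower in Nrf2KO livers, at 22.4 to 39.7 CPM (the count scaled to the normalized library size), than in WT livers, at 48.0 to 69.7 CPM, and the ranges did not overlap. The Nfe2l2 transcript is still counted in part from the disrupted allele. The C151S allele changes 1 codon and cannot be checked from gene counts. All 5 hepatocyte markers examined, among them Alb and Apoa1, had at least 49329 counts in every library, whereas 5 of 6 pancreas markers were at 0 in 26 to 29 of the 30 libraries. Libraries fell into a high and a low set by the clock gene Arntl. All 10 WT libraries were in the high set, and 2 or 3 of 5 libraries in every mutant group were in the low set. Replicates are separate mice. In whole liver, fewer cells of a type and less RNA per cell cannot be told apart.

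Which samples chose the genes sets what could be tested. The differences between CDDO-Me-treated WT mice and either mutant, and the response of WT mice, were used in the choice, so they are described with no p value. The responses of the mutants and all other values of CDDO-Me-treated mutants rest in part on the same libraries and are described in the same way. For C151S against Nrf2KO mice after CDDO-Me, counts of calls are given as well, and nothing is read from them. WT vehicle-treated libraries entered the choice only as the low side of the WT response. Vehicle-treated mutant libraries are not named in the rule of choice, and the 3 basal comparisons between genotypes were tested. Genes chosen for a genotype gap after CDDO-Me may also carry it without CDDO-Me. The basal calls of WT against either mutant, and their excess over the share of all genes, are therefore not independent of the choice. A gene was called where edgeR's quasi-likelihood test gave a Benjamini-Hochberg adjusted p under 0.05 over all genes and the log2 fold change was at least 0.5 in size.

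In vehicle-treated mice, 6 of the 8 genes were higher in WT than in Nrf2KO livers (Vtcn1, Entpd5, Adora1, Creg1, D630045J12Rik, and Acsm1). Of the 14030 genes tested in that comparison, 4.13% were called higher in WT and 10.4% in either direction. Vtcn1 passed the filter on low counts there through its WT libraries alone. The median log2 fold change of the 8 genes was 1.04, against -0.01 over all genes tested. Esd was 1.27-fold higher in WT, under the fold threshold, and Srgap2 did not differ beyond the spread between mice. Values of 7 of the 8 genes did not overlap between the 2 genotypes, as did 7.01% of all genes tested with WT higher.

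Entpd5 (ENSMUSG00000021236.16, GRCm38 chr12:84373857-84409029, minus strand) showed a graded loss across genotypes. Its level in vehicle-treated WT livers was 402, 309.5, 363, 354, and 325 CPM in the 5 mice. In C151S livers it was 219.92, 204, 221, 306, and 252 CPM, and in Nrf2KO livers 162, 116, 137, 119, and 113 CPM. The lowest WT mouse lay just above the highest C151S mouse, and all Nrf2KO mice lay below both groups. The log2 difference between WT and Nrf2KO was 1.43 ± 0.12 (SE), with an adjusted p of 5.49e-05 (edgeR), and that between WT and C151S was 0.54 ± 0.12, with an adjusted p of 0.0169 (edgeR). C151S exceeded Nrf2KO by 0.89 ± 0.14 on the log2 scale (edgeR adjusted p = 0.0159). After CDDO-Me, the WT values were 709.9, 733, 810.05, 836, and 733 CPM. The C151S values stayed where the vehicle values lay, from 187 to 327 CPM, and Nrf2KO values ran from 138 to 184 CPM.

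Creg1 (ENSMUSG00000040713.12, chr1:165763746-165775308, plus strand) had the same order, with little spread within groups. Vehicle-treated WT livers had 448, 485, 425, 436, and 446 CPM. The C151S livers had 398, 357, 330.27, 344, and 372 CPM, and the Nrf2KO livers 237, 181, 186, 238, and 226 CPM. The 3 vehicle groups did not overlap. WT exceeded Nrf2KO by 1.06 ± 0.10 on the log2 scale (edgeR adjusted p = 1.16e-04). WT exceeded C151S by 0.31 ± 0.07, for which the adjusted p was 0.0277 (edgeR) and the fold change was under the threshold. The log2 difference between C151S and Nrf2KO was 0.75 ± 0.11 (edgeR adjusted p = 0.00906). CDDO-Me-treated WT livers had 779, 719.72, 855, 1012, and 939.89 CPM, whereas CDDO-Me-treated C151S livers had 332 to 398 CPM and Nrf2KO livers 229 to 252 CPM.

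Adora1 (ENSMUSG00000042429.8, chr1:134199223-134235431, minus strand) varied more from mouse to mouse. In vehicle-treated WT livers it was at 30.1, 39.8, 29.1, 34.4, and 26.9 CPM. The C151S values were 23.8, 26.4, 19.4, 18.8, and 39.8 CPM, and the Nrf2KO values were 11.2, 19.1, 18.4, 9.75, and 9.03 CPM. All Nrf2KO mice were below all WT mice, while the C151S group had 4 mice below the WT range and 1 close to the highest WT mouse. The log2 difference between WT and Nrf2KO was 1.23 ± 0.22 (edgeR adjusted p = 0.00454). It was 0.32 ± 0.19 between WT and C151S (edgeR adjusted p = 0.319, 95% interval -0.11 to 0.74) and 0.92 ± 0.26 between C151S and Nrf2KO (edgeR adjusted p = 0.244). With CDDO-Me, WT livers had 64.7, 59.1, 57.7, 66.5, and 79.6 CPM, above all other libraries. Part of the gene lies across Mybph on the opposite strand, and 17.39% of its 50-base stretches are also found in another gene, chiefly Mybph. Reads were counted by strand, so that reads of Mybph on its own strand were not added to Adora1.

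Vtcn1 (ENSMUSG00000051076.8, chr3:100825459-100896922, plus strand) was the least abundant in CPM and had the widest difference. Vehicle-treated WT livers held 26 to 38 counts of it, at 1.38, 1.18, 0.711, 1.17, and 0.914 CPM in the 5 mice. The C151S livers had 0.357, 0.120, 0.207, 0.0959, and 0.0545 CPM, and the Nrf2KO livers had 0.0530, 0.121, 0.130, 0, and 0.269 CPM. No mutant mouse, with 0 to 11 counts per library across both treatments, reached the lowest WT mouse. With the counts of each group pooled, the WT level was 9.15 times that of Nrf2KO (157 against 21 counts, exact 95% counting interval 5.78 to 15.2) and 6.34 times that of C151S (157 against 28 counts, 4.22 to 9.84). The edgeR test gave log2 differences of 3.17 ± 0.47 (adjusted p = 0.00193) and 2.65 ± 0.39 (adjusted p = 0.0033). Vtcn1 passed the filter on low counts in both comparisons through its WT libraries alone. Its entry into these tests, and its 2 calls, therefore depended on the group in which it was high. Both mutants were close to the floor of 3 counts, and their ratio to each other, 1.44 with an interval of 0.791 to 2.68, was not separable from 1 at this depth. The counting intervals of pooled counts cover counting error only and leave out the spread between mice. The gene was too low in the mutants to be tested between them. WT livers exposed to CDDO-Me had 2.37, 3.55, 2.37, 2.87, and 3.35 CPM. The CDDO-Me-treated mutants held 0 to 7 counts per library, so that the WT level was 36.1 times (95% counting interval 21.3 to 66.5) that of C151S and 41.0 times (23.7 to 77.6) that of Nrf2KO mice. Both contrasts were used to choose the genes, so the ratios and their intervals are a description from which nothing is read. Of the 13 pooled Nrf2KO counts, 7 came from replicate 5, without which the log2 difference between CDDO-Me-treated WT and Nrf2KO mice was 6.06, against 5.27 with it.

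D630045J12Rik (ENSMUSG00000063455.16, chr6:38123174-38254009, minus strand) was also low in both mutants without an order between them. Vehicle-treated WT livers had 5.77, 3.11, 4.74, 5.46, and 4.99 CPM. The C151S livers had 1.49, 1.63, 1.63, 3.13, and 1.77 CPM, and the Nrf2KO livers had 2.89, 2.35, 2.08, 1.71, and 2.72 CPM. The lowest WT mouse was just above the highest Nrf2KO mouse and just below the highest C151S mouse, while the other mice were well apart. WT exceeded Nrf2KO by 1.03 ± 0.20 on the log2 scale (edgeR adjusted p = 0.00656) and C151S by 1.32 ± 0.23 (edgeR adjusted p = 0.00742). The difference between C151S and Nrf2KO was -0.28 ± 0.24, with a 95% interval of -0.80 to 0.23. CDDO-Me-treated WT livers had 13.0, 13.4, 13.9, 14.6, and 9.19 CPM, and the lowest of these was above all other libraries. The gene overlaps Atp6v0a4 on the same strand, and reads that fall on both genes were not counted for either.

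**Figure D1:**
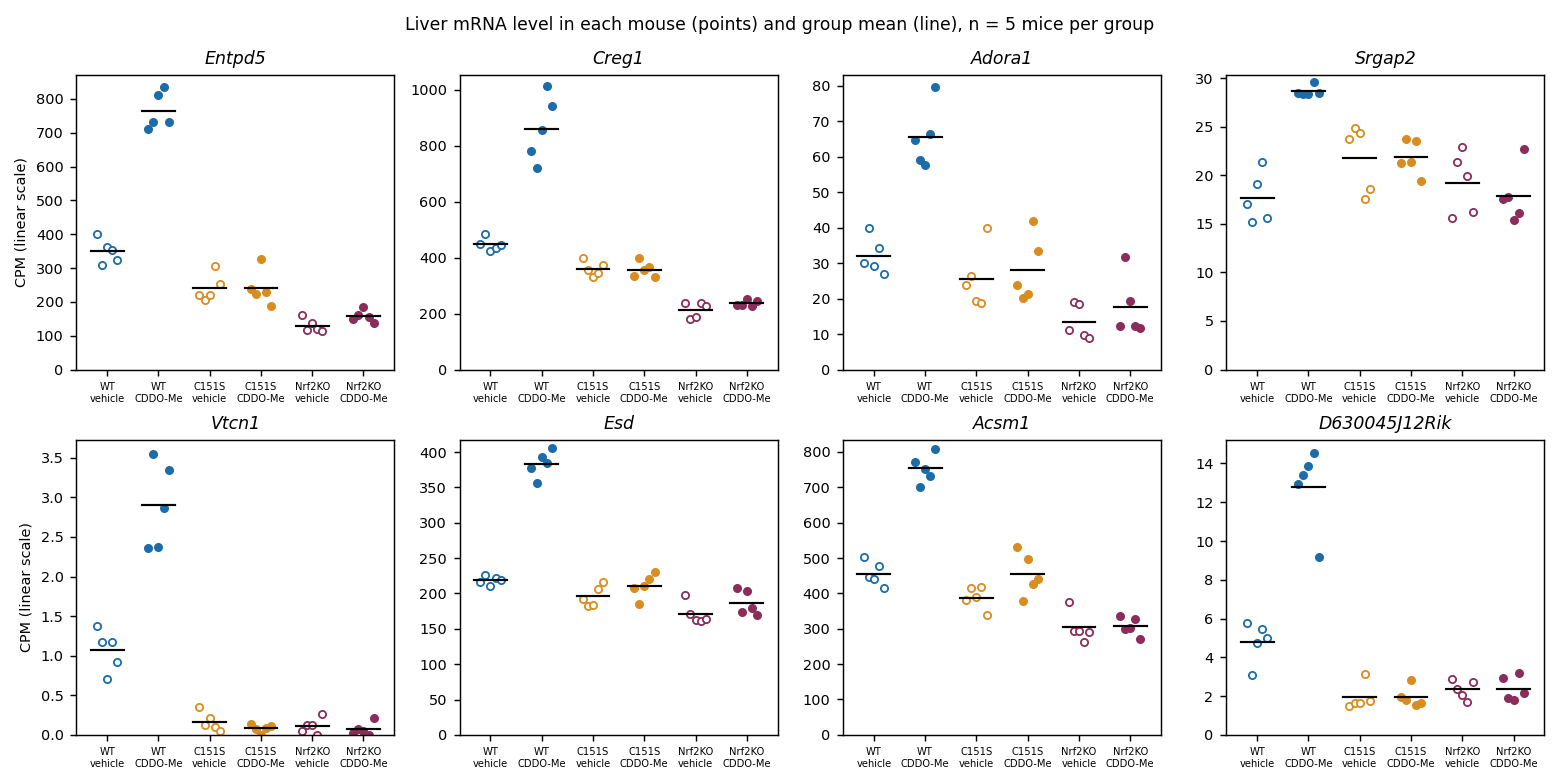
Levels of the 8 genes in CPM on linear axes from 0, with 1 point per mouse, open for vehicle and filled for CDDO-Me, and a line at the mean of the 5 mice of each group. CDDO-Me-treated WT mice were above all other groups for every gene. Vehicle-treated WT mice were above both vehicle-treated mutant groups for Entpd5, Creg1, and Vtcn1, whereas Srgap2 was at 15.2 to 21.3 CPM in them and at 15.6 to 22.9 CPM in vehicle-treated Nrf2KO mice.

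Acsm1 (ENSMUSG00000033533.14, chr7:119607026-119662515, plus strand) was at 502, 446, 441, 477, and 415 CPM in vehicle-treated WT livers. The C151S livers had 381, 414, 389, 418, and 339 CPM, and the Nrf2KO livers had 377, 294, 295, 263, and 291 CPM. WT mice were above all Nrf2KO mice and overlapped the C151S mice by 1 pair. The log2 difference between WT and Nrf2KO was 0.58 ± 0.10 (edgeR adjusted p = 0.00474), the smallest of the 6 that were called. Between WT and C151S it was 0.23 ± 0.09 (edgeR adjusted p = 0.114), and between C151S and Nrf2KO 0.35 ± 0.11 (edgeR adjusted p = 0.281). CDDO-Me-treated WT livers had 772, 702, 753, 733, and 807 CPM, those of C151S mice 531, 379, 499, 428, and 440.1 CPM, and those of Nrf2KO mice 270.39 to 335 CPM. The CDDO-Me-treated C151S mice thus lay above all CDDO-Me-treated Nrf2KO mice.

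Esd (ENSMUSG00000021996.16, chr14:74732297-74750765, plus strand) had the smallest basal difference among the genes that were higher in WT. Vehicle-treated WT livers had 216, 227, 211, 222, and 219 CPM. The C151S livers had 193, 182, 183, 207, and 216 CPM, and the Nrf2KO livers had 198, 172, 162, 161, and 164 CPM. WT mice were above all Nrf2KO mice, and 1 C151S mouse reached the lower end of the WT range. The log2 difference between WT and Nrf2KO was 0.35 ± 0.07 (edgeR adjusted p = 0.0114), which passed the p threshold and not the fold threshold. After CDDO-Me, WT livers had 378, 356, 394, 385, and 405 CPM, whereas CDDO-Me-treated C151S livers had 186 to 231 CPM and Nrf2KO livers 169.94 to 208 CPM. Of its 50-base stretches, 7.76% are shared with other annotated genes, among them the pseudogene Esd-ps, and reads that match several places were not counted.

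Srgap2 (ENSMUSG00000026425.15, chr1:131285251-131527352, minus strand) stood apart, since WT was not the highest genotype without CDDO-Me. Vehicle-treated WT livers had 17.1, 15.2, 19.1, 21.3, and 15.6 CPM. The C151S livers had 23.7, 24.8, 24.3, 17.5, and 18.6 CPM, and the Nrf2KO livers had 15.6, 21.4, 22.9, 20.0, and 16.2 CPM. All 3 vehicle groups overlapped, and the WT mean was the lowest of the 6 groups. The log2 difference between WT and Nrf2KO was -0.13 ± 0.14 (edgeR adjusted p = 0.533), with a 95% interval of -0.42 to 0.17. Between WT and C151S it was -0.31 ± 0.13 (edgeR adjusted p = 0.155), with a 95% interval of -0.588 to -0.025. CDDO-Me-treated WT livers had 28.5, 28.3, 28.3, 29.7, and 28.5 CPM, the tightest of the groups, and lay above CDDO-Me-treated C151S livers at 19.4 to 23.8 CPM and Nrf2KO livers at 15.4 to 22.7 CPM.

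The genes differed widely in abundance. Per kilobase of exon, the level in vehicle-treated WT livers was 209 ± 15.4 CPM (SD, n = 5) for Acsm1 and 189.67 ± 9.61 CPM for Creg1. Esd and Entpd5 followed at 65.0 ± 1.80 CPM and 58.1 ± 5.94 CPM per kilobase. Adora1 was at 5.54 ± 0.886 CPM and Srgap2 at 1.41 ± 0.203 CPM on that scale, and Vtcn1 and D630045J12Rik were lowest, at 0.408 ± 0.0990 CPM and 0.358 ± 0.0768 CPM.

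The windows around the start sites of the genes were read for the letters of the ARE core, TGACNNNGC, and of the AP-1 site TGACTCA, which overlaps the ARE where it is followed by GC, on both strands. RefSeq windows of GRCm38.p6, from 250 bases before to 50 bases after the start, were matched for all 8 genes, with 2 windows for Adora1. The ARE letters were in 0 of the 9 windows, against 12.39% of 32851 windows of all genes and 10 of 33 windows (30.3%) of classical NRF2 target genes. The AP-1 letters were in 1 of 9 windows, that of Vtcn1, against 5.2% of all windows. A match is a description of letters, and sites outside these windows were not read. The windows of the genes with a basal difference between WT and both mutants that did not overlap in any mouse follow on the strand of the gene, with the Vtcn1 match in capitals. The Vtcn1 window is chr3:100825209-100825508 on the plus strand, that of Entpd5 is chr12:84408980-84409279 on the minus strand, and that of Creg1 is chr1:165763508-165763807 on the plus strand.
Vtcn1: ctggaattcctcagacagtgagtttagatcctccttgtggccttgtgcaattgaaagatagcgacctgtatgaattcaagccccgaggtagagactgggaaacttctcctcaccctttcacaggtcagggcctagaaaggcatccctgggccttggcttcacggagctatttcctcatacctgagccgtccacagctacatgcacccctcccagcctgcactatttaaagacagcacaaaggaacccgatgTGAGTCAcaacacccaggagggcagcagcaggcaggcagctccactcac
Entpd5: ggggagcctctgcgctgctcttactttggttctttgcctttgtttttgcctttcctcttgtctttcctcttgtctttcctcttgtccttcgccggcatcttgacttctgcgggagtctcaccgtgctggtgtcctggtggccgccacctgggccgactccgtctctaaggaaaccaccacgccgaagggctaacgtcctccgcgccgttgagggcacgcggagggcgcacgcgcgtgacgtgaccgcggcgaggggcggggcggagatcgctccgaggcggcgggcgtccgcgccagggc
Creg1: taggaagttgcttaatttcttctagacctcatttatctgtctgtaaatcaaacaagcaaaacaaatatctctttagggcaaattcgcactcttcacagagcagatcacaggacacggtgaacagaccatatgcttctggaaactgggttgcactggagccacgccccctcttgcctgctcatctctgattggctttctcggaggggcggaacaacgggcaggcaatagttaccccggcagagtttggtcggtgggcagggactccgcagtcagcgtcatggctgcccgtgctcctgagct
The capitals in the Vtcn1 window are the reverse complement of the AP-1 letters and lie 1 to 7 bases after the start of transcription.

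The basal comparison of WT with C151S describes differences between these genotypes without an inducer, which cannot be told apart from differences in colony of origin. Entpd5, Vtcn1, and D630045J12Rik were called higher in WT, 3 of the 8 genes, where 2.25% of 13946 genes tested were called higher in WT and 4.84% in either direction. Here, too, Vtcn1 passed the filter on low counts through its WT libraries alone. The median log2 difference of the 8 genes was 0.31, against -0.01 over all genes tested. The values of Entpd5, Creg1, and Vtcn1 did not overlap between the 2 genotypes, as did 5.38% of all genes with WT higher. For Adora1, Esd, and Acsm1, the differences of 0.15 to 0.32 on the log2 scale were not called, and Srgap2 had its mean lower in WT. The Entpd5 call rests on single mice, since without WT vehicle replicate 1 the log2 difference was 0.48 and without C151S vehicle replicate 2 it was 0.49 with an adjusted p of 0.0506 (edgeR). Without C151S vehicle replicate 5, the highest C151S mouse for Adora1, that gene was called at 0.53 (edgeR adjusted p = 0.0435).

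Between the vehicle-treated mutants, C151S exceeded Nrf2KO for Entpd5 and Creg1, which were the 2 genes called of 7 tested. Of 14323 genes tested, 0.307% were called higher in C151S and 0.349% in either direction. Neither gene overlapped between the mutants, as did 1.56% of all genes with C151S higher. The means of Adora1, Acsm1, Esd, and Srgap2 were higher in C151S by 0.18 to 0.92 on the log2 scale, and that of D630045J12Rik was lower, without a call. The median over the 7 genes was 0.35, against -0.01 over all genes. The Entpd5 call was lost without Nrf2KO vehicle replicate 2 (edgeR adjusted p = 0.0732), and both calls were lost in the high Arntl libraries alone, 3 of C151S and 2 of Nrf2KO mice, where the log2 differences were 0.89 for Entpd5 and 0.64 for Creg1 and 0.0275% of all genes were called higher in C151S.

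**Figure D2:**
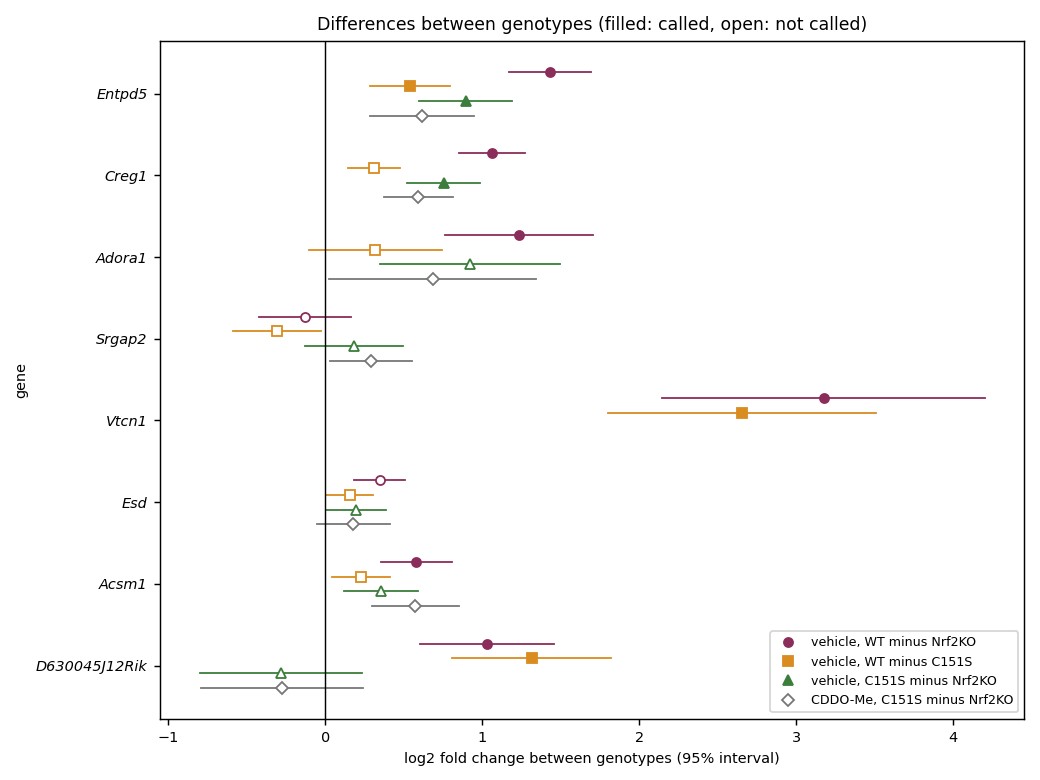
Log2 fold change between genotypes for each gene (horizontal axis) with its 95% interval, in vehicle-treated mice for WT against Nrf2KO (circles), WT against C151S (squares), and C151S against Nrf2KO (triangles), and in CDDO-Me-treated mice for C151S against Nrf2KO (diamonds). Filled symbols are called. The diamonds are a description, since CDDO-Me-treated libraries were used to choose the genes. Entpd5 had all 3 basal differences called, Vtcn1 and D630045J12Rik were higher in WT than in either mutant, and no Srgap2 difference was called.

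After CDDO-Me, C151S livers exceeded Nrf2KO livers by 0.59 ± 0.10 for Creg1, 0.62 ± 0.15 for Entpd5, 0.57 ± 0.13 for Acsm1, and 0.69 ± 0.30 for Adora1 on the log2 scale. By edgeR, 0 of 7 genes tested were called, where 0.162% of 14186 genes were called. An unadjusted p under 0.05 was found for 5 of the 7, and DESeq2 called Entpd5, Creg1, and Acsm1 higher in C151S, where it called 0.523% of all genes higher. Both groups were on the low side of the choice of genes, so nothing is read from these counts. The values of 3 genes, Entpd5, Creg1, and Acsm1, did not overlap between the mutants, as did 0.909% of all genes with C151S higher. Vtcn1 was at 14 against 13 pooled counts in the 2 groups, a ratio of 1.14 with an exact 95% counting interval of 0.496 to 2.63.

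The response of WT livers to CDDO-Me chose the genes and is given as a description. The log2 increase in WT was 1.44 ± 0.20 for Vtcn1, 1.40 ± 0.17 for D630045J12Rik, and 1.11 ± 0.09 for Entpd5. It was 1.02 ± 0.11 for Adora1 and 0.94 ± 0.09 for Creg1, and the enzymes Esd and Acsm1 rose by 0.80 ± 0.06 and 0.71 ± 0.08. Srgap2 had the smallest increase, of 0.69 ± 0.09.

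In the mutants, 7 of the genes stayed near their vehicle levels. Vtcn1 was too low there to be tested. Its pooled counts were 28 with vehicle and 14 with CDDO-Me in C151S mice, and 21 and 13 in Nrf2KO mice. The log2 response in C151S mice ranged from -0.02 to 0.22 over 7 genes, highest for Acsm1, and in Nrf2KO mice from -0.12 to 0.35, highest for Adora1. The Adora1 value in Nrf2KO mice had a wide error, 0.35 ± 0.31, with 1 CDDO-Me-treated mouse at 31.8 CPM and the other 4 at 11.8 to 19.4 CPM. The intervals leave room for small responses, since the 95% interval of Entpd5 ran from -0.35 to 0.34 in C151S mice and from -0.01 to 0.53 in Nrf2KO mice.

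Response in WT exceeded that in C151S mice by 0.50 ± 0.14 for Acsm1 to 2.44 ± 0.74 for Vtcn1 on the log2 scale, in a fit of all 30 libraries. Against Nrf2KO mice, the excess ran from 0.67 ± 0.37 for Adora1 to 2.10 ± 0.77 for Vtcn1, which was 2.88 without Nrf2KO CDDO-Me replicate 5. Both Vtcn1 values include its lower mutant counts after CDDO-Me, which are close to the floor. The errors were narrowest for Creg1 and Esd. For Creg1 the excess was 0.96 ± 0.13 over C151S and 0.80 ± 0.13 over Nrf2KO mice, and for Esd it was 0.71 ± 0.11 and 0.69 ± 0.11. These differences share the WT libraries with each other, and they contain the WT response and the CDDO-Me-treated libraries that were used in the choice.

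Among CDDO-Me-treated mice, the excess of WT over C151S was smallest for Srgap2, at 0.38 ± 0.08 on the log2 scale, and for the other genes ran from 0.72 ± 0.11 for Acsm1 to 5.09 ± 0.37 for Vtcn1. The excess over Nrf2KO mice ran from 0.67 ± 0.11 for Srgap2 to 5.27 ± 0.45 for Vtcn1. These differences chose the genes.

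How much of the WT to Nrf2KO gap was already there without CDDO-Me differed by gene. On the mean log2 CPM scale, the vehicle gap was 64.9% of the CDDO-Me gap for Adora1, 63.3% for Entpd5, 61.7% for Vtcn1, and 58.2% for Creg1. It was 45.8% for Acsm1, 41.8% for D630045J12Rik, and 34.4% for Esd. For Srgap2 the vehicle gap had the other sign, and its share was -16.6%. The shares are ratios of group means with no error attached, and the CDDO-Me gap was used to choose the genes. For Vtcn1, near the floor in the mutants, the scale with a prior count of 2 gave gaps of 2.89 with vehicle and 4.68 with CDDO-Me. The edgeR fit gave 3.17 and 5.27.

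**Figure D3:**
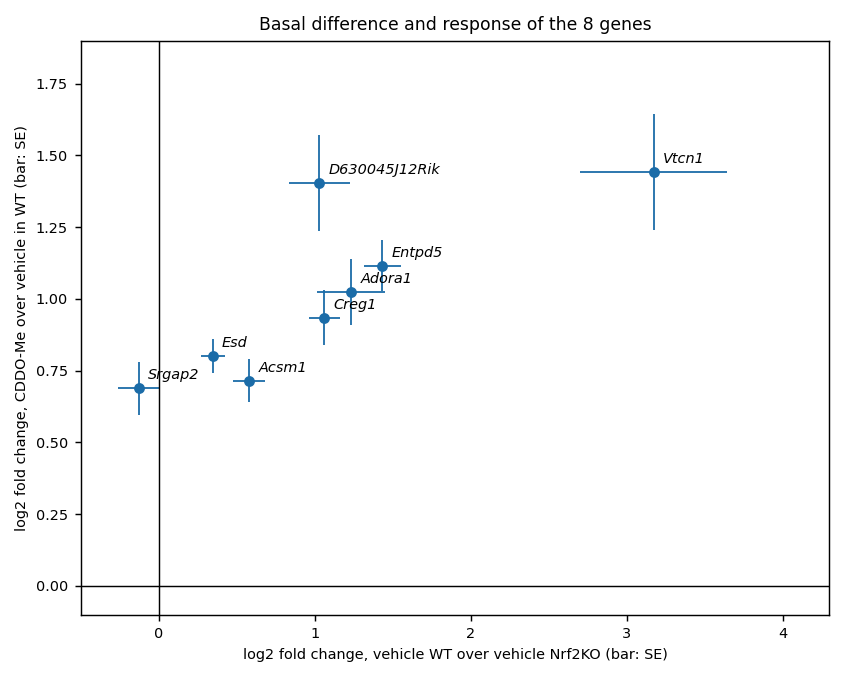
Each point is 1 of the 8 genes, placed by its log2 fold change between vehicle-treated WT and Nrf2KO mice (horizontal axis) and its log2 response to CDDO-Me in WT mice (vertical axis), with SE bars. Vtcn1 lay far to the right at 3.17, and Srgap2 lay left of 0 at -0.13 with a response of 0.69. The axes share the vehicle-treated WT mice.

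Ranked by mean, CDDO-Me-treated WT mice came first for all 8 genes and did not overlap the group that came next. Of all genes tested, 3.45% were higher in CDDO-Me-treated than in vehicle-treated WT mice without overlap. That share covers these 2 groups only, and the share of genes first among all 6 groups was not computed. The first place of CDDO-Me-treated WT mice was fixed by the choice of genes, and nothing is read from it. Vehicle-treated WT mice came second for 7 genes, and the group that followed them overlapped them for Entpd5, Adora1, Esd, Acsm1, and D630045J12Rik, where it was a CDDO-Me-treated mutant group. For Entpd5, Creg1, Adora1, Srgap2, Esd, and Acsm1, both C151S groups came before both Nrf2KO groups, with overlapping values for Adora1, Srgap2, and Esd. For D630045J12Rik both Nrf2KO groups came before both C151S groups, with overlapping values.

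Across the 30 libraries, the pairs of the 8 genes had Pearson correlations of log2 CPM from 0.42 to 0.96, with a median of 0.82 over 28 pairs. These libraries share the 6 groups, so the correlations describe the group pattern. The lowest was that of Srgap2 with D630045J12Rik. The gene most like Entpd5 was Ugt2b35 (r = 0.98) and that most like Creg1 was Gstm1 (0.98), both on the list of classical NRF2 targets. Adora1 was most like Pir (0.91) and Acsm1 most like Blvrb (0.96). Esd was most like Slc35d1 (0.96) and then Txnrd1 and Srxn1, while Vtcn1 was most like Tex2 (0.93) and D630045J12Rik most like Slc25a17 (0.93). Srgap2 had the weakest likeness, 0.83 with Clec4n, and the next were A530064D06Rik and Fnbp1.

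Genes related in function to the 8 were compared between genotypes in vehicle-treated mice. Of 14 nucleotide and adenosine genes tested, 3 were higher in WT than in Nrf2KO livers, namely Entpd5, Adora1, and Pnp, the purine nucleoside phosphorylase (0.51 ± 0.10 on the log2 scale, edgeR adjusted p = 0.00606), and the list median was -0.03. Against C151S, Entpd5 and Pnp were higher (Pnp 0.56 ± 0.11, edgeR adjusted p = 0.0118). Of 9 genes of glycoprotein folding, Entpd5, Uggt1, and Pdia3 were higher in WT than in Nrf2KO livers and Uggt2 was lower. Uggt1, which reglucosylates glycoproteins that are not yet folded, was at 117 CPM in WT, 76.4 CPM in Nrf2KO, and 71.6 CPM in C151S livers. The WT value exceeded those of the mutants by 0.60 ± 0.08 (edgeR adjusted p = 0.00119) and 0.70 ± 0.10 (edgeR adjusted p = 0.00267). Against C151S, 4 of the 9 were higher, Uggt1, Pdia3, Entpd5, and Calr, with a list median of 0.41. Between the mutants, Entpd5 was the 1 gene of the 9 called, and the median was -0.09.

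Creg1 was the 1 gene of 13 lysosomal genes tested that was higher in WT than in Nrf2KO livers, and Npc1, a lysosomal cholesterol transporter, was lower in WT (-0.64 ± 0.17, edgeR adjusted p = 0.025). In the SLIT-ROBO and srGAP list, Srgap2 was not called in any basal comparison, and its relative Srgap3 was the 1 of 7 higher in WT than in Nrf2KO livers. Srgap3 was at 6.20 CPM in WT and 1.59 CPM in Nrf2KO livers, a log2 difference of 1.98 ± 0.37 (edgeR adjusted p = 0.00606). The C151S mean was 2.81 CPM, and its difference from WT was not called (1.14 ± 0.39, edgeR adjusted p = 0.0885).

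Vtcn1 was alone among 7 genes of the B7 family in being higher in WT than in Nrf2KO livers, while Icosl, which encodes the ligand of the T cell receptor ICOS, and Vsir, another inhibitor of T cells, were lower. Icosl was at 0.874 CPM in WT and 3.18 CPM in Nrf2KO livers (log2 difference -1.87 ± 0.29, edgeR adjusted p = 0.00248), and Vsir at 6.07 and 10.1 CPM (-0.75 ± 0.17, edgeR adjusted p = 0.016). Of 7 genes of formaldehyde and methylglyoxal removal, which include Esd, 0 were called by edgeR and 0 by DESeq2 between WT and Nrf2KO livers. An unadjusted p under 0.05 was found for 5 of them, and their log2 differences ran from -0.11 to 0.49. With Acsm1, 3 of 7 genes of the medium-chain acyl-CoA list were higher in WT than in Nrf2KO livers. These were Keg1 (0.90 ± 0.15, edgeR adjusted p = 0.00347), Acsm1, and Acsm5 (0.50 ± 0.09, edgeR adjusted p = 0.00553), and the list median was 0.50.

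For comparison, 19 of 28 classical NRF2 targets tested were higher in WT than in Nrf2KO livers without CDDO-Me, 9 were higher in WT than in C151S livers, and 10 were higher in C151S than in Nrf2KO livers. The list medians were 0.99, 0.42, and 0.47 on the log2 scale. Beside them, the medians were 1.04 and 0.31 for the 8 genes, and 0.35 for the 7 tested between the mutants. Aox1 had the widest difference, 3.05 ± 0.16 between WT and Nrf2KO livers (edgeR adjusted p = 1.32e-06), and Gstm4, Ugt2b35, and Gstm1 differed by 1.76 ± 0.09, 2.60 ± 0.14, and 2.63 ± 0.17.

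**Figure D4:**
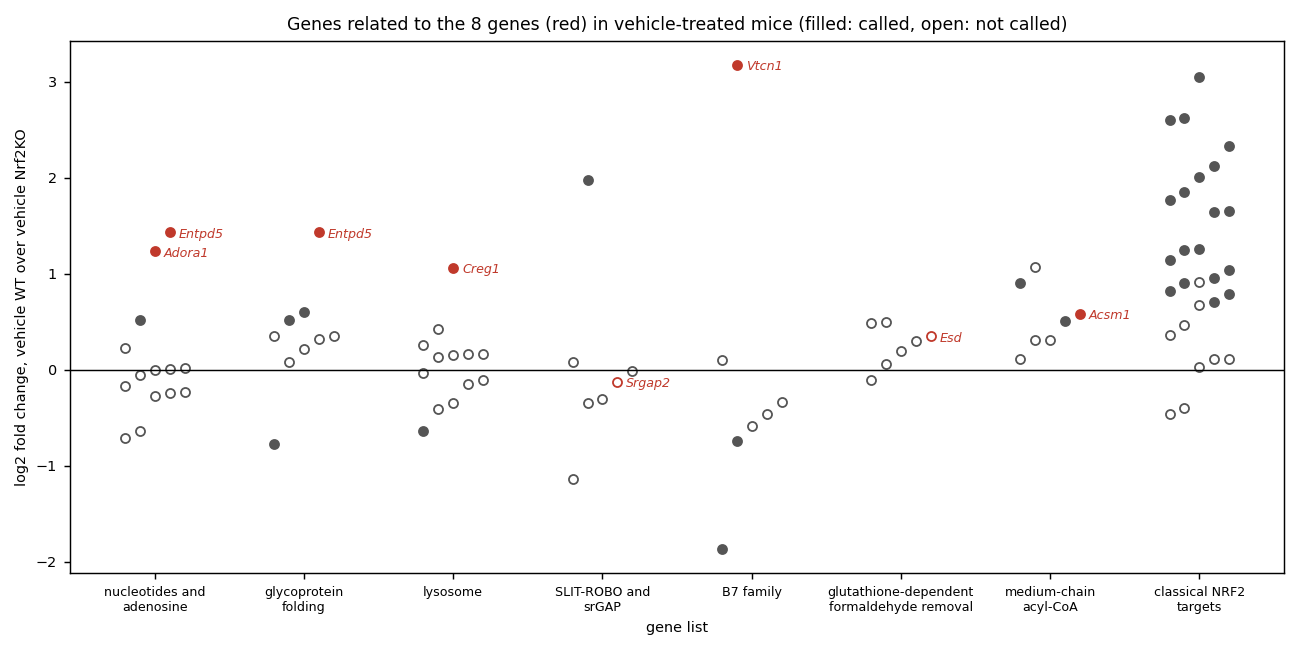
Log2 fold change between vehicle-treated WT and Nrf2KO mice (vertical axis) of the genes of 8 lists (horizontal axis), 1 point per gene, filled where called and red for the genes described. Among classical targets 19 of 28 were called higher. Called higher, the red ones included, were 3 of 7 medium-chain acyl-CoA, 3 of 9 glycoprotein folding, and 3 of 14 nucleotide and adenosine genes. In the remaining lists, of 7 to 13 genes tested, 0 or 1 gene was called higher.

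Markers of other cell types moved with genotype in some lists. Endothelial markers were lower in vehicle-treated WT than in Nrf2KO livers for 3 of 5 genes, and their summed level ran from 142 to 171 CPM in WT and from 180.16 to 284 CPM in Nrf2KO mice. Stellate markers were lower for 2 of 5 genes, with sums of 164 to 231 CPM and 153 to 436 CPM. The neutrophil markers S100a8 (-2.22 on the log2 scale) and S100a9 (-1.78), the 2 of that list that were tested, were lower in WT, with sums of 0.678 to 1.55 CPM and 0.847 to 7.33 CPM over the list. Cela2a, the 1 pancreas marker tested, was also lower in WT (-1.19), with sums of 0.316 to 0.689 CPM and 0.846 to 1.38 CPM. Between vehicle-treated WT and C151S mice, edgeR called 0 of 5 endothelial markers, of which 4 had an unadjusted p under 0.05 and DESeq2 called 2 lower in WT. Spp1, 1 of 5 cholangiocyte markers tested, was higher in WT than in C151S livers by 0.83, with sums of 25.2 to 55.1 CPM and 18.0 to 26.8 CPM. Of 6 Kupffer cell markers and 5 hepatocyte markers, 0 were called by edgeR or DESeq2 in that comparison, and 1 hepatocyte marker had an unadjusted p under 0.05. The part of these cell types in the levels of the 8 genes was not tested. Within the high Arntl libraries, 6 of 8 genes were called between vehicle-treated WT and Nrf2KO livers, where 3.43% of all genes were called higher in WT, and 3 of 8 between WT and C151S livers, where 4.78% were. With the Arntl set as a covariate, 6 and 3 were called, where 5.62% and 2.19% of all genes were.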

How the data were processed

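Liver mRNA of 30 mice was sequenced in pairs of 50 bases from stranded libraries. The authors assessed read quality with fastp, aligned the reads to mm10 with STAR 2.7.7, and deposited raw counts per gene for GENCODE M23, without normalization. The 4 STAR summary rows were left out. They held 19.36% to 34.11% of the reads, and unmapped reads were most frequent in WT vehicle libraries (4.72% to 8.82%). Symbols and positions came from GENCODE M21 (GRCm38), and 55154 of 55335 genes had a symbol. Groups were compared 2 at a time on their own libraries, with filterByExpr, TMM factors, and the legacy quasi-likelihood F-test of edgeR 4.0.16 (R 4.3.3). Adjusted p values are over all genes tested, and SE is the ratio of the log2 fold change to the root of F. Log2 CPM used a prior count of 2. Counting intervals cover counting error only. The isolation date that the authors used as a covariate is not given in the labels and could not be used here. Whether it differed between the groups could therefore not be checked. The genes and lists were chosen with earlier results of these data known. Named genes are the 8 genes, Nfe2l2, Keap1, Arntl, up to 4 genes called per list in a basal comparison by lowest p, and the 3 genes most like each of the 8. Alternatives were DESeq2 1.42.0, upper-quartile factors, no filter, the edgeR 4 fit, all 30 libraries, a replicate block, no fold threshold, the Arntl set, and each mouse left out. The tests were checked on simulated counts.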

Additional observations from a re-analysis of the deposited data

Results flagged for a closer look

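In 4 of the 48 sets of 5 mice, made of 8 genes in 6 groups, 1 mouse lay far from the other 4. Chance gives about 1 such mouse in 20 sets. For Srgap2, CDDO-Me-treated WT replicate 4 was at 29.7 CPM and the others were at 28.3 to 28.5 CPM, a group with little spread. For Esd, vehicle-treated Nrf2KO replicate 1 was at 198 CPM and the others were at 161 to 172 CPM. The same mouse was highest for Acsm1, at 377 CPM, with the others at 263 to 295 CPM. For D630045J12Rik, vehicle-treated C151S replicate 4 was at 3.13 CPM and the others were at 1.49 to 1.77 CPM, and this mouse alone overlapped the WT range. The differences between the responses of WT and mutant mice contain libraries that were used to choose the genes and are therefore not listed here.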

How the results depend on the processing

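The count of genes called between vehicle-treated WT and Nrf2KO mice was 5 to 7 under the 19 alternatives, and between WT and C151S mice it was 2 to 4, and no log2 value in the comparisons between vehicle-treated genotypes changed sign. Responses near 0 in the mutants did change sign, among them Srgap2 in Nrf2KO mice (-0.12, against 0.14 in the high Arntl libraries). Between vehicle-treated C151S and Nrf2KO mice, 0 genes were called with the replicate block and 0 in the high Arntl libraries alone, against 2, and 1 to 2 were called as each mouse was left out. In the other direction, DESeq2 called Adora1 higher in C151S at 0.93 (DESeq2 adjusted p = 0.0363). The fit of all 30 libraries with the Arntl set as a covariate also called Adora1, at 0.99 (edgeR adjusted p = 0.0495). The block gave log2 differences of 0.89 for Entpd5 (edgeR adjusted p = 0.129) and 0.76 for Creg1 (edgeR adjusted p = 0.0584). Same-numbered mice did not deviate together in all 5 pairs of any comparison (mean correlation -0.21 to 0.18), so the numbers are not taken as pairs, and the block changed no other count of calls. Between CDDO-Me-treated C151S and Nrf2KO mice, against 0, DESeq2 called 3, the edgeR 4 fit 1, the fit of all 30 libraries 3, and that fit with the Arntl set as a covariate 3. The cause of these differing counts was not tested. Both groups were on the low side of the choice of genes, so nothing is read from the counts. With upper-quartile factors, Acsm1 (WT against Nrf2KO) and Entpd5 (WT against C151S) fell to 0.50, just under the fold threshold. Vtcn1 in the mutants, at 0 to 11 counts per library, is limited by depth.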
